A study of Mus musculus with 12 samples.

Results

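This report describes the genes that encode voltage-gated sodium, calcium and potassium channels, hyperpolarization-activated channels and the other potassium channels, in cultured mouse hippocampal neurons. The members were every protein-coding gene whose symbol follows the Scn, Kcn, Cacna, Cacnb, Cacng or Hcn naming pattern, and 136 of the 27179 genes counted met this rule. The rule uses symbols only and no measured value. Primary neurons (C57BL/6 per the sample labels, with FVB pups also named in the study's methods) came from hippocampi of pups 0 or 1 day old and had spent 17 or 18 days in culture. They grew on porous Transwell membranes that let processes, but not cell bodies, pass through, so that somas were collected from above the membrane and neurites from the membrane itself. Neurons received the proteasome inhibitor MG132 at 10 μM for 7 h or the vehicle (Ctrl), without any genetic change in either. Crossing fraction with treatment gave 4 groups (somas and neurites of Ctrl cultures, somas and neurites of MG132 cultures), with 3 libraries of polyadenylated RNA in each. Membranes sort by size and not by cell type, so processes of glia that live in the same dishes can reach the neurites fraction.

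Voltage-gated channels open a pore when the membrane potential changes. Most sodium channel alpha subunits (among Scn1a to Scn11a) start the action potential, the Kv family ends it and sets firing rate, and Cav channels admit calcium at terminals and dendrites. Inward rectifiers (Kcnj) and two-pore channels (Kcnk) hold the resting potential, calcium-activated channels (Kcnma1, Kcnn) shape the afterpotential, and HCN channels carry a depolarizing current after hyperpolarization. Auxiliary subunits (Scn b, Cacna2d, Cacnb, Kcnab, Kcne, Kcnip) set how many pores reach the membrane and how they gate, and most Cacng members are partners of AMPA receptors.

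Libraries held between 4247610 and 22166347 counted reads, and the most abundant gene took between 12.4% and 33.4% of them. The members together took between 0.0634% (MG132 neurites replicate 3) and 0.510% (Ctrl somas replicate 1). Of the 136 members, 97 had enough reads to be tested, and the other 39 had at most 101 reads summed over all 12 libraries, 6 of them (Cacng1, Kcna10, Kcne3, Kcnj1, Kcnk15 and Kcnk16) with 0. The untested ones included the muscle sodium channel Scn4a and the sensory neuron channels Scn10a and Scn11a. The neuron markers Rbfox3, Map2, Snap25, Syt1, Tubb3 and Slc17a7 were detected in every group, with a summed level of 941 to 1449 CPM (read counts scaled to a common library size) in Ctrl somas and 869.9 to 1595 CPM in Ctrl neurites, and 0 of these 6 genes was called in any comparison. Astrocyte markers were also present, and their 7 genes summed to 4672 to 5814 CPM in Ctrl somas and 20454 to 25612 CPM in Ctrl neurites. Lower RNA of a glial gene in such bulk samples cannot be told apart from fewer glial cells or processes.

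Per kilobase of exon, the inward rectifier Kcnj10 (the main potassium channel of astrocytes and oligodendrocytes, chr1:172341210-172374085, GRCm38) stood above the other tested members in 3 of the 4 groups, at 114 ± 13.4 CPM per kb (SD, n = 3) in Ctrl somas and 457 ± 84.5 in Ctrl neurites. In both groups its lowest library lay above the highest library of every other member. Below it in Ctrl somas were the Shaker-type channel Kcna1 at 44.3 ± 13.1 and the two-pore channel Kcnk1 at 26.6 ± 12.2 CPM per kb, whose ranges overlapped. Then followed Kcnab2 (12.3 ± 7.75), Scn2b (11.5 ± 4.45), Scn2a (11.4 ± 3.16), the calcium-binding subunit Kcnip3 (10.9 ± 3.82), Hcn2 (9.15 ± 4.80) and Cacnb4 (9.05 ± 0.365). In Ctrl neurites Kcna1 was at 23.5 ± 5.63, Kcnab2 at 19.0 ± 14.2 and Kcnk1 at 15 ± 6.93 CPM per kb, with overlapping ranges. In MG132 somas Kcna1 led at 33.3 ± 12.8 CPM per kb, and Kcnj10, at 16.3 ± 6.52, was below Kcnk1 at 20.4 ± 6.29, again with overlap. Ranks rest on dividing by exon length: by CPM alone, Scn2a moved from rank 7 to rank 3 and Kcnk1 from rank 4 to rank 13 in Ctrl somas.

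The first question was how channel RNAs were split between neurites and somas in Ctrl cultures. The members lower in neurites were 6 pore-forming subunits of sodium, calcium and Kv channels and 1 auxiliary subunit, Cacna2d1, and 3 members were higher there, Kcnj10 among them. A member was called when edgeR's quasi-likelihood test gave an adjusted p under 0.01 and the change exceeded 1.7-fold. In Ctrl cultures 7 of the 97 tested members (7.22%) were called lower in neurites, against 1.28% of all 14185 tested genes, and 3 (3.09%) were called higher, against 6.15% of all genes. With the replicate number as a block, 16 were called lower and 5 higher, the 10 members above included. Over all tested genes the block raised the calls from 181 lower and 873 higher to 549 and 1219. The median log2 fold change, neurites minus somas, was -0.84 over the members and -0.04 over all tested genes, and the ranges of the 2 groups were apart for 38 members that were lower and 7 that were higher, against 15.9% and 17.8% of all genes. Scaling by total counts in place of TMM (a scaling that assumes most genes do not differ) moved the split of all calls from 873 higher and 181 lower to 179 and 936, and that of the members to 0 higher and 29 lower, the 7 lower ones included. A member that is high in only one fraction can pass the read filter through that fraction alone, so these counts describe the tested members and not all 136.

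Sodium channel alpha subunits formed the class with the most calls for its size, with 3 of 5 tested genes called lower in neurites. Scn2a, the channel of excitatory neurons and early axons (chr2:65620764-65767447), measured 191, 128 and 116 CPM in Ctrl somas libraries 1 to 3 and 75.3, 51.0 and 34.6 CPM in Ctrl neurites. Every neurites library lay below every somas library, a log2 fold change of -1.44 ± 0.32 (SE) with an adjusted p of 0.00616 (edgeR). Scn8a, which carries most sodium current at the mature axon initial segment (chr15:100869863-101045938), measured 107, 71.0 and 88.5 CPM in somas and 45.2, 30.8 and 27.0 CPM in neurites. Its groups did not overlap either, and the log2 fold change was -1.38 ± 0.22 with an adjusted p of 0.000555 (edgeR). Scn1a, the sodium channel of fast inhibitory neurons (chr2:66270781-66440837), was less abundant, at 24.4, 19.2 and 15.4 CPM in somas against 5.29, 5.14 and 4.54 CPM in neurites. Its log2 fold change was -1.98 ± 0.38 (edgeR, adjusted p 0.00208). Scn1a and Scn2a share 2.59% and 3.81% of their 75-base windows with each other or with Scn3a and Scn9a, so few of their reads could be assigned to the wrong gene. The 5 GABAergic markers, none at 0, summed to 97.3 to 224 CPM in Ctrl somas and 38.5 to 99.4 CPM in Ctrl neurites, and 0 of 4 tested was called between the fractions. Their part in the Scn1a difference was not tested. Leaving out any 1 of the 6 libraries kept the Scn8a call. The Scn1a call was lost without Ctrl somas 1 or Ctrl neurites 3 (adjusted p up to 0.0133, edgeR), and the Scn2a call without Ctrl somas 1 or 2 or Ctrl neurites 2 or 3 (adjusted p up to 0.0312, edgeR), with log2 fold changes still between -2.20 and -1.26.

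Of the sodium channel beta subunits, 0 of 3 tested genes was called. Scn2b had a log2 fold change of -0.91 ± 0.41 and did not pass (edgeR, adjusted p 0.166).

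Among calcium channel genes, 1 of 9 tested alpha1 pores and 1 of 4 alpha2delta subunits were called lower in Ctrl neurites. The alpha2delta subunit Cacna2d1, which carries Cav pores to the membrane (chr5:15934264-16374511), measured 103, 90.1 and 99.7 CPM in somas and 32.5, 27.0 and 22.7 CPM in neurites. No neurites library came near a somas library, and the log2 fold change of -1.84 ± 0.23 had the smallest adjusted p of all members in this comparison (5.38e-05, edgeR). Cacna1e, the R-type pore found in dendrites and spines (chr1:154390806-154884785), measured 48.2, 38.1 and 43.9 CPM in somas against 23.3, 12.8 and 12.6 CPM in neurites, again without overlap (log2 fold change -1.44 ± 0.29, edgeR adjusted p 0.00295). The P/Q-type pore Cacna1a, at -0.72 ± 0.22, and the L-type pore Cacna1d, at -1.18 ± 0.34, did not pass (edgeR, adjusted p 0.0354 and 0.0291). With the block Cacna1d passed (adjusted p 0.000434, edgeR), and Cacna1a was not called because its change was under 1.7-fold. All 9 tested alpha1 genes had a negative log2 fold change, with a median of -1.04. The Cacna2d1 call was kept in each of the 6 fits that left out 1 library, and the Cacna1e call was lost in 4 of them (without Ctrl somas 1 or 3 or Ctrl neurites 2 or 3), with an adjusted p of up to 0.0183 (edgeR).

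Of 30 tested Kv alpha genes, 2 were called lower in neurites. Kcnq5, a subunit of the M-current (chr1:21398399-21962650), measured 46.3, 38.3 and 46.8 CPM in Ctrl somas and 24.6, 16.5 and 12.4 CPM in Ctrl neurites, and every neurites library was below every somas library (log2 fold change -1.31 ± 0.25, edgeR adjusted p 0.00205). Kcnc1, a Kv3 channel of fast-spiking cells (chr7:46396219-46438706), measured 27.8, 14.2 and 28.4 CPM in somas and 6.08, 8.71 and 6.55 CPM in neurites. Its log2 fold change was -1.71 ± 0.39 (edgeR, adjusted p 0.00764). Without 1 library the Kcnq5 call was lost in 2 of 6 fits (Ctrl neurites 2 or 3, adjusted p up to 0.0111) and the Kcnc1 call in 5 of 6, all but Ctrl somas 2 (edgeR, adjusted p up to 0.0333). Kcna1 had a log2 fold change of -0.92 ± 0.34 and did not pass without the replicate block (edgeR adjusted p 0.0857) but passed with it (adjusted p 0.00070). The Shal-type channel Kcnd3 (chr3:105451890-105674002) went the other way, at 72.2, 78.8 and 41.5 CPM in somas and 169.7, 120.1 and 117 CPM in neurites. The 2 groups did not overlap, and its log2 fold change of 1.08 ± 0.26 did not pass without the block (edgeR adjusted p 0.0119) but passed with it (adjusted p 3.52e-05).

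**Figure D1:**
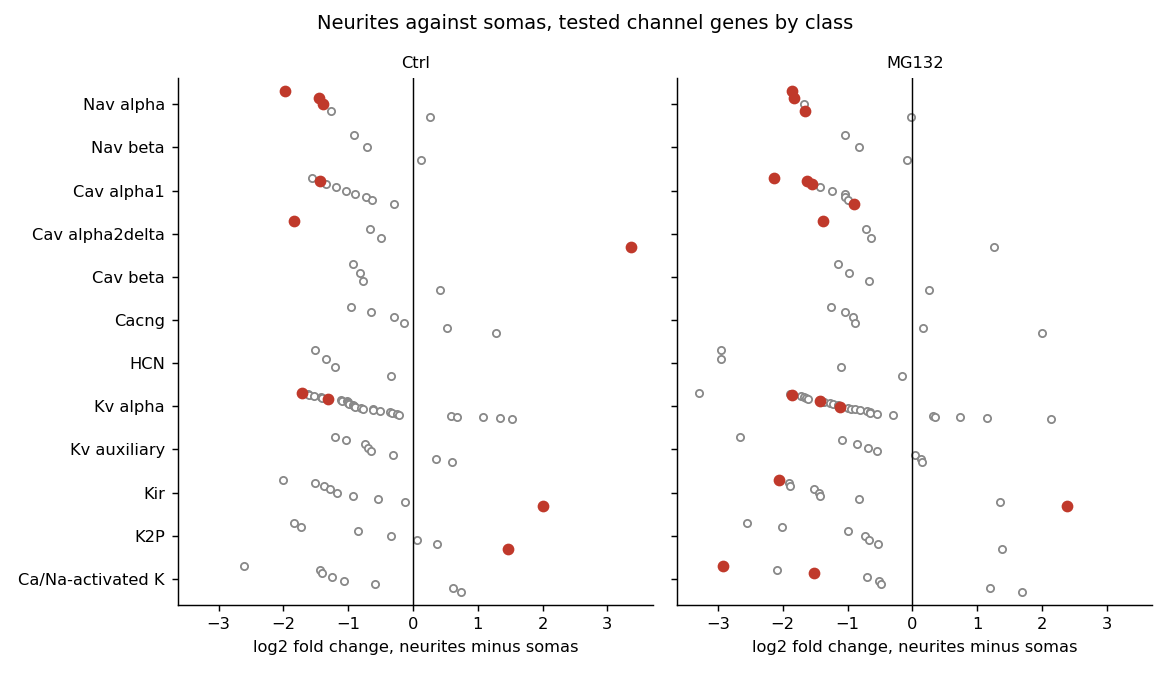
Log2 fold change of neurites over somas for the 97 tested channel genes by class, in Ctrl (left) and MG132 (right). Each circle is 1 gene, and filled red circles are called genes, 10 in Ctrl and 15 in MG132. Most circles lie left of 0, and Kcnj10, in the Kir class, is the filled circle farthest right in MG132.

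Higher in neurites were Kcnj10, Kcnk2 and Cacna2d4. Kcnj10 measured 649, 666 and 534 CPM in Ctrl somas and 3000.5, 2222 and 2196 CPM in Ctrl neurites. All 3 neurites libraries were more than 3-fold above every somas library, with a log2 fold change of 2.0 ± 0.36 (edgeR, adjusted p 0.00142). Among the fits without 1 library the call was lost only without Ctrl somas 3 (adjusted p 0.0142, edgeR), and with total counts the log2 fold change was 1.29 ± 0.41 and did not pass (edgeR, adjusted p 0.0263). Astrocyte markers went both ways, with 2 of 7 (Gfap and Slc1a2) called higher and 1 (Gja1) called lower in Ctrl neurites, and none of the 7 was at 0. Their higher sum in neurites was mostly Gfap, with a mean of 1965 CPM in Ctrl somas and 17774 CPM in Ctrl neurites, and the other 6 summed to 3112 to 3379 and 4035 to 4865 CPM. Kcnj10 amounted to 12.6%, 11.5% and 11.4% of the summed astrocyte markers in Ctrl somas and 14.4%, 8.68% and 10.7% in Ctrl neurites. When Gfap, the most abundant of them, was left out of the sum, the shares were 19.2%, 20.4% and 17.1% in somas and 63.4%, 55.1% and 45.1% in neurites. The shares overlapped between fractions with Gfap and stood apart without it. The part of glial content in the Kcnj10 difference was not tested.

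Kcnk2, the mechanosensitive two-pore channel TREK-1 (chr1:189207930-189402782), measured 14.2, 12.8 and 7.05 CPM in Ctrl somas and 35.9, 34.7 and 23.7 CPM in Ctrl neurites. The groups did not overlap, and the log2 fold change was 1.46 ± 0.35 with an adjusted p just under the threshold (0.00999776, edgeR). Each of the 6 fits without 1 library lost this call, with adjusted p up to 0.0646 (edgeR), with total counts the log2 fold change was 0.75 ± 0.45, and 12.2% of its exon bases lie opposite an antisense gene, A430027H14Rik. Cacna2d4, an alpha2delta subunit known from photoreceptors (chr6:119236524-119352407), was rare, with 13, 7 and 3 reads in Ctrl somas and 31, 42 and 51 reads in Ctrl neurites. In CPM these were 0.897, 0.775 and 0.331 against 8.19, 4.69 and 8.57, a log2 fold change of 3.37 ± 0.73 (edgeR, adjusted p 0.00537), and the call was lost in 5 of 6 fits, all but the one without Ctrl neurites 2 (edgeR, adjusted p up to 0.0306). With total counts it was at 2.65 ± 0.90 and did not pass (edgeR, adjusted p 0.0355).

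**Figure D2:**
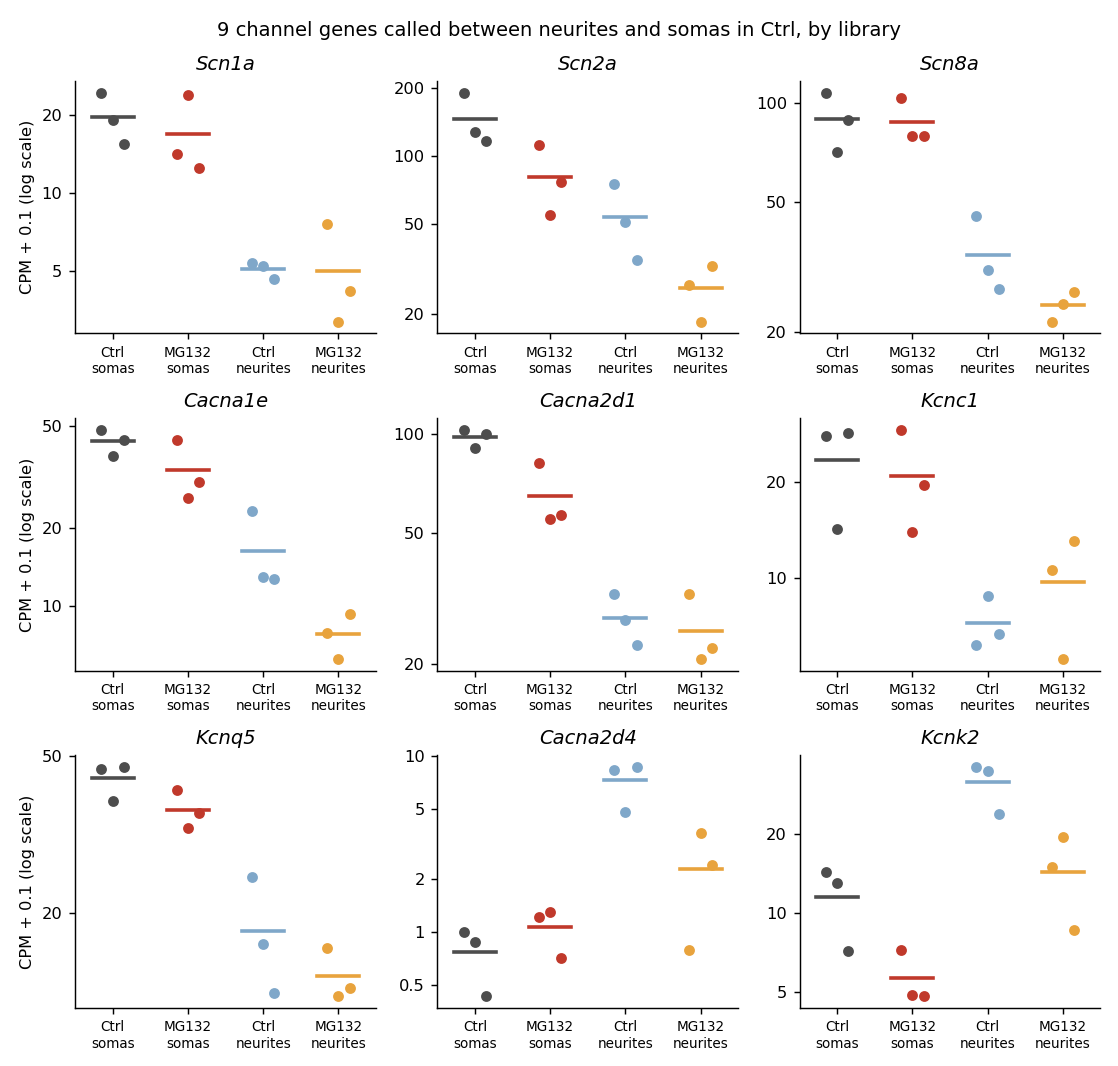
CPM plus 0.1 on a log axis for 9 of the 10 channel genes called between Ctrl neurites and Ctrl somas, in all 4 groups. Points are libraries 1 to 3 from left to right and bars are group means. In the first 7 panels each neurites group lies below the somas group of the same treatment, and in Cacna2d4 and Kcnk2 the Ctrl neurites are highest.

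The same split was measured under MG132, in other libraries with the same replicate numbers. Both comparisons came from 1 model over all 12 libraries, so they are not independent of each other. Under MG132, 14 of 97 members (14.4%) were called lower in neurites, against 2.08% of all tested genes, and 1 (1.03%), Kcnj10, was called higher, against 6.92%. With the replicate block these were 27 and 3. Calls over all tested genes rose with it from 295 lower and 982 higher to 756 and 1330. Of the 7 members lower in Ctrl neurites, 6 (85.7%) were also called in MG132, where they made up 42.9% of the 14: Scn1a, Scn2a, Scn8a, Cacna1e, Cacna2d1 and Kcnq5. This overlap was not counted over all tested genes. When each comparison was fitted from its own groups alone, Kcnq5 and Scn2a were not called in Ctrl and Scn1a was not called in MG132. Scn8a measured 104, 79.4 and 79.0 CPM in MG132 somas and 21.4, 24.3 and 26.4 CPM in MG132 neurites, and its log2 fold change of -1.86 ± 0.23 had the smallest adjusted p of the members (5.56e-05, edgeR). Cacna1e measured 44.1, 26.1 and 30.2 CPM in somas and 7.75, 6.14 and 9.22 CPM in neurites, at -2.14 ± 0.30 (edgeR, adjusted p 0.000162). Scn2a was at -1.66 ± 0.32, Scn1a at -1.82 ± 0.38, Cacna2d1 at -1.37 ± 0.22 and Kcnq5 at -1.42 ± 0.25. In all 6 genes every MG132 neurites library was below every MG132 somas library. The Scn8a, Cacna1e, Cacna2d1 and Kcnq5 calls were kept in each fit without 1 library, Scn1a was lost in 3 of 6 (without MG132 somas 2 or MG132 neurites 2 or 3, adjusted p up to 0.0251) and Scn2a in 2 (without MG132 somas 1 or MG132 neurites 2, adjusted p up to 0.0179, edgeR).

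The other 8 members called lower in MG132 neurites were Cacna1a, Cacna1b, Cacna1d, Kcna2, Kcnh1, Kcnj4, Kcnma1 and Kcnn2. Presynaptic calcium channels were among them, with P/Q-type Cacna1a (chr8:84338631-84640251) at 105, 76.7 and 77.1 CPM in somas and 49.4, 39.7 and 50 CPM in neurites (log2 fold change -0.90 ± 0.22, edgeR adjusted p 0.00930) and N-type Cacna1b (chr2:24603860-24763200) at -1.62 ± 0.39. Kcnj4, a strong inward rectifier of forebrain neurons (chr15:79480226-79512511), measured 44.8, 17.4 and 19.5 CPM in MG132 somas against 7.98, 7.14 and 4.61 CPM in MG132 neurites, at -2.05 ± 0.37 (edgeR, adjusted p 0.00141). The EAG channel Kcnh1 was at -1.86 ± 0.41, L-type Cacna1d at -1.55 ± 0.35, the BK channel Kcnma1 at -1.52 ± 0.36, and the Kv1 channel Kcna2 at -1.11 ± 0.26. In all of these genes the groups did not overlap. Each of these 8 calls was lost in at least 2 of the 6 fits without 1 library, with MG132 somas 1 among the libraries whose absence ended every one of them, and adjusted p then reached 0.0822 for Cacna1a (edgeR). In the Ctrl cultures the same 8 genes had log2 fold changes between -1.53 and -0.32 and none passed, while with the block Cacna1d, Kcnh1 and Kcnma1 did (edgeR, adjusted p 0.000434, 0.000534 and 3.61e-05). An effect called only in MG132 is not shown to differ from that in Ctrl, and the test of the difference is given further on.

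The next question was how 7 h of MG132 changed channel RNA in each fraction. No tested member was called higher in either fraction, and a small group was called lower in both: the TARP gene Cacng4, the Kv1 channel gene Kcna2, glial Kcnj10, the SK channel gene Kcnn3 and the sodium channel beta subunit Scn2b. In somas 0 members were called higher, against 9.0% of all tested genes, and 6 (6.19%) lower, against 5.58%. In neurites 0 were called higher, against 9.25%, and 8 (8.25%) lower, against 5.44% of all genes. The lower share in somas was thus near that of all genes. Microglial markers moved the same way, with 3 of 6 called lower in somas and 4 in neurites and a summed level of 504 to 618 CPM in somas under Ctrl and 124 to 217 CPM under MG132, and of 507 to 999.6 and 76.6 to 170.3 CPM in neurites, as did 3 and 1 of the 4 tested vascular and fibroblast markers (in somas 139.9 to 167 CPM under Ctrl and 34.9 to 50 under MG132, in neurites 35.4 to 69 and 17.9 to 28 CPM, with Cldn5 at 0 in all groups but Ctrl somas). Neuron markers summed to 700.0 to 1216 CPM in MG132 somas and 766 to 1382 CPM in MG132 neurites, and the GABAergic marker Pvalb was the 1 of 4 tested that was called lower in both fractions. The part of other cell types in the members' changes was not tested. The replicate block raised the counts to 1 higher and 14 lower in somas and to 16 lower in neurites, which held all 6 and all 8 members called without it. Over all tested genes it raised the calls from 1276 higher and 792 lower to 1666 and 1384 in somas. In neurites they went from 1312 and 772 to 1668 and 1383. The 5 shared members were 83.3% of the somas list and 62.5% of the neurites list. The same overlap was not counted over all tested genes, so whether it is high for the members is not known. Median log2 fold changes, MG132 minus Ctrl, were -0.38 over the members and -0.07 over all tested genes in somas, and -0.68 and -0.16 in neurites. Ranges were apart for 27 members that were lower and 1 that was higher in somas, against 22.7% and 23.2% of all genes, and for 26 and 0 in neurites, against 20.4% each way.

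**Figure D3:**
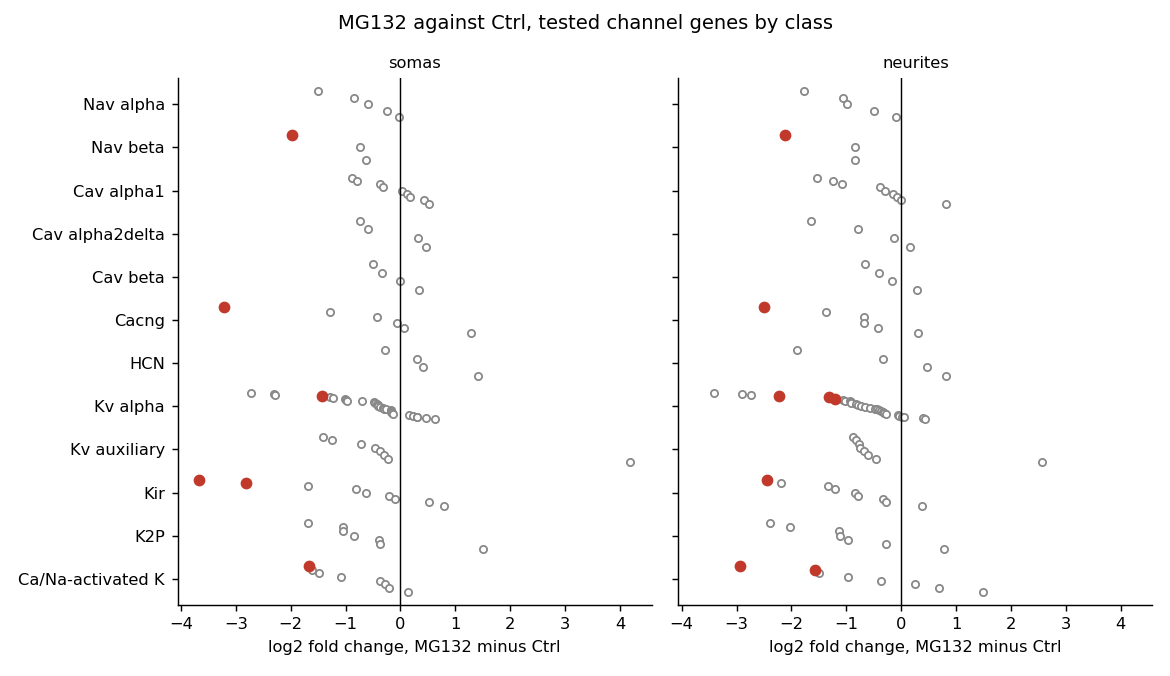
Log2 fold change of MG132 over Ctrl for the 97 tested channel genes by class, in somas (left) and neurites (right). Each circle is 1 gene, and filled red circles are called genes, 6 in somas and 8 in neurites. All filled circles lie left of 0, and the open circle near 4 in somas is Kcne4.

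Kcna2 encodes a low-threshold Kv1 channel of axons (chr3:107090883-107115005). Its somas libraries fell from 125, 69.9 and 83.7 CPM in Ctrl to 41.6, 30.1 and 31.3 CPM in MG132, and its neurites libraries from 95.1, 68.0 and 60.8 to 19.8, 14.3 and 14.0 CPM. The highest MG132 library was below the lowest Ctrl library in both fractions. Log2 fold changes were -1.43 ± 0.25 in somas (edgeR, adjusted p 0.000754) and -2.23 ± 0.26 in neurites, where its adjusted p was the smallest of the members (3.19e-05, edgeR). All 12 fits without 1 library kept the call. As a share of the summed neuron markers, Kcna2 was 8.62%, 7.28% and 8.90% in Ctrl somas and 3.42%, 4.30% and 3.62% in MG132 somas, and it fell from 5.97%, 6.46% and 6.99% to 1.43%, 1.86% and 1.53% in neurites. With all libraries scaled to these markers, the Kcna2 call was lost in somas and kept in neurites. The paralog Kcna1, which forms mixed channels with it, was not called, with log2 fold changes of -0.41 ± 0.34 in somas and -0.44 ± 0.34 in neurites.

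Scn2b (chr9:45117876-45130070), a beta subunit linked to the alpha subunit by a disulfide bond, measured 77.3, 39.8 and 43.2 CPM in Ctrl somas and 11.6, 18.8 and 10.8 CPM in MG132 somas. In neurites it measured 48.4, 23.8 and 14.4 CPM in Ctrl and 8.89, 4.06 and 7.63 CPM in MG132. Neither fraction overlapped between treatments. The log2 fold changes were -1.98 ± 0.42 and -2.11 ± 0.45 (edgeR, adjusted p 0.00312 and 0.00277). Each call was lost in 3 of 6 fits, without Ctrl somas 1 or MG132 somas 1 or 3 and without Ctrl neurites 1 or MG132 neurites 2 or 3, with adjusted p up to 0.0219 (edgeR) and log2 fold changes of -1.55 or below. Alpha subunits were not called: Scn2a was at -0.84 ± 0.31 in somas and -1.06 ± 0.32 in neurites, with adjusted p of 0.0574 and 0.0245 (edgeR) that fell to 0.00162 and 0.000589 with the replicate block.

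Kcnn3 encodes a small-conductance calcium-activated channel (chr3:89520164-89672494). It measured 22.0, 18.3 and 21.6 CPM in Ctrl somas and 5.82, 6.93 and 6.68 CPM in MG132 somas, and 13.5, 12.8 and 14.8 against 6.38, 2.89 and 5.14 CPM in neurites. Its 3 MG132 libraries were below all Ctrl libraries in each fraction, with log2 fold changes of -1.67 ± 0.30 and -1.57 ± 0.32 (edgeR, adjusted p 0.000961 and 0.00198). The somas call was kept in each fit without 1 library, and the neurites call was lost in 3 of 6 (without Ctrl neurites 3 or MG132 neurites 2 or 3, adjusted p up to 0.0127, edgeR). Kcnn2, the paralog that dominates SK current in many hippocampal pyramidal cells (chromosome 18), was called in neurites only. Its reads there numbered 18, 58 and 19 in Ctrl and 2, 23 and 0 in MG132, so that the fitted log2 fold change of -2.94 ± 0.65 (edgeR, adjusted p 0.00366) rests on few MG132 reads, most of them in library 2. Of the Kcnn2 exon bases, 8.13% lie opposite A330093E20Rik or AC121957.1. The call was lost without MG132 neurites 1 or Ctrl neurites 2 (adjusted p up to 0.0172, edgeR). In somas Kcnn2 was at 12.3, 7.98 and 10.0 CPM in Ctrl and 5.82, 5.15 and 3.40 CPM in MG132, a log2 fold change of -1.09 ± 0.55 that did not pass (edgeR, adjusted p 0.157).

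Cacng4, a TARP that traffics AMPA receptors and is expressed by neurons and oligodendrocyte precursors (chr11:107732357-107794706), measured 12.2, 10.6 and 8.37 CPM in Ctrl somas and 1.20, 1.78 and 0.696 CPM in MG132 somas. In neurites the values were 27.8, 31.4 and 17.1 CPM in Ctrl and 2.51, 7.23 and 2.84 CPM in MG132. The fall was among the largest of the members, at -3.22 ± 0.48 in somas (edgeR, adjusted p 0.000258) and -2.51 ± 0.44 in neurites (edgeR, adjusted p 0.000657), and no fit without 1 library lost it. Of the 8 oligodendrocyte-lineage markers, 3 were called lower with MG132 in somas and 4 in neurites, Pdgfra and Sox10 in both, while their summed level ranged from 1415 to 5968 CPM in Ctrl somas, 471 to 5525 in MG132 somas, 4966 to 21726 in Ctrl neurites and 2826 to 15737 in MG132 neurites, with no marker at 0. Their part in the Cacng4 fall was not tested. The other tested Cacng genes were not called.

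In somas Kcnj10 fell from 649, 666 and 534 CPM under Ctrl to 73.6, 128 and 62.2 under MG132, and from 3000.5, 2222 and 2196 to 450.1, 710.2 and 207 CPM in neurites. The MG132 and Ctrl libraries were far from overlapping in both fractions. Its log2 fold changes were -2.81 ± 0.38 (edgeR, adjusted p 0.000107) and -2.44 ± 0.37 (edgeR, adjusted p 0.000228), kept in all 12 fits without 1 library. Astrocyte markers summed to 2454 to 3224 CPM in MG132 somas and 9532 to 19621 CPM in MG132 neurites, with 4 of 7 called lower in somas (Aqp4, Slc1a3, Slc1a2 and Aldoc) and 2 (Aqp4 and Slc1a2) in neurites. Relative to that sum, Kcnj10 was 2.80%, 3.98% and 2.54% in MG132 somas and 3.73%, 3.62% and 2.17% in MG132 neurites, all below the lowest Ctrl share of 8.68%. Without Gfap in the sum the shares were 5.13%, 8.13% and 4.24% in MG132 somas and 17.0%, 32.9% and 7.83% in MG132 neurites, again below the Ctrl shares of the same fraction.

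**Figure D4:**
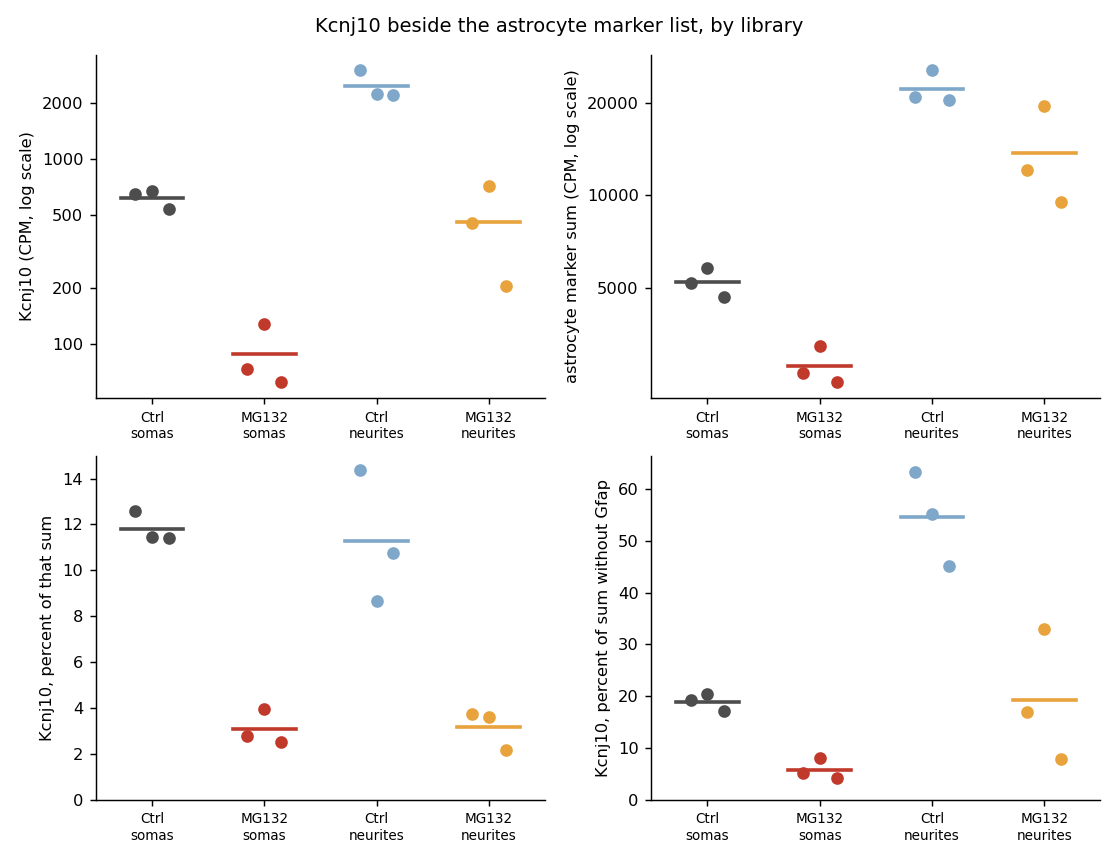
Kcnj10 (CPM, log axis), the sum of 7 astrocyte markers (CPM, log axis), and Kcnj10 as a percent of that sum with and without Gfap, in each library. Points are libraries 1 to 3 from left to right and bars are group means. Kcnj10 is 2.17% to 3.98% of the full sum in the 6 MG132 libraries and 8.68% to 14.4% in the 6 Ctrl libraries.

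Kcnj12, which encodes a second strong inward rectifier (chr11:61022564-61073269), was called in somas only. It had 43, 39 and 30 reads in Ctrl somas and 1, 0 and 13 reads in MG132 somas, and most of the MG132 reads came from library 3, the deepest of them. Its fitted log2 fold change was -3.67 ± 0.92 (edgeR, adjusted p 0.00854), and the call was lost in 5 of 6 fits, all but the one without MG132 somas 3 (adjusted p up to 0.0376, edgeR). In neurites it was at -2.20 ± 0.87 and did not pass (edgeR, adjusted p 0.0750). Kcna6, a Kv1 channel (chr6:126708328-126740834), was called in neurites, from 34.9, 28.4 and 29.1 to 7.75, 17.0 and 11.4 CPM (-1.32 ± 0.27, edgeR adjusted p 0.00253), and was at -0.98 ± 0.27 in somas (edgeR, adjusted p 0.0136, and 0.00304 with the block). Gene Gm26673 lies opposite 39.6% of Kcna6 exon bases, and without strand in the counts the reads of the 2 genes cannot be told apart. Kcnd3 fell in neurites from 169.7, 120.1 and 117 to 56.5, 74.9 and 43.3 CPM (-1.21 ± 0.26, edgeR adjusted p 0.00340), while in somas, at 72.2, 78.8 and 41.5 against 46.2, 54.5 and 37.6 CPM, its ranges overlapped (-0.48 ± 0.26). Both neurites calls were lost without Ctrl neurites 1, MG132 neurites 1 or MG132 neurites 3 (adjusted p up to 0.0350, edgeR).

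Promoters are shown for the members called lower with MG132 in both fractions. RefSeq windows on GRCm38.p6, from 250 bases before to 50 bases after a start, were at hand for 4 of these 5 genes and for 99 of the 136 members, and Cacng4 is named only. The windows of Kcnj10, Kcnn3 and Scn2b begin 250 bases before the gene starts given above. That of Kcna2 lies inside the gene span given above, so it does not show the first base of that span. The motifs searched on both strands were the core of the heat shock element (GAANNTTC or TTCNNGAA), the cyclic AMP response element (TGACGTCA), the GC box (GGGCGG), the CCAAT box (CCAAT) and the TATA box (TATAAA), and capitals mark each match. The sequences run 5′ to 3′ on the plus strand, Kcna2 from chr3:107101317-107101616, Kcnj10 from chr1:172340960-172341259, Kcnn3 from chr3:89519914-89520213 and Scn2b from chr9:45117626-45117925.
Kcna2: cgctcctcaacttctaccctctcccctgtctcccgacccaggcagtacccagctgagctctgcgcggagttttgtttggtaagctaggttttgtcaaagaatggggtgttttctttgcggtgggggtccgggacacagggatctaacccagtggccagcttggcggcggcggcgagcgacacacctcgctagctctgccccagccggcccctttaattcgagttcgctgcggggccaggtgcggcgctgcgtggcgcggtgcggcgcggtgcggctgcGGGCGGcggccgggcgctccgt
Kcnj10: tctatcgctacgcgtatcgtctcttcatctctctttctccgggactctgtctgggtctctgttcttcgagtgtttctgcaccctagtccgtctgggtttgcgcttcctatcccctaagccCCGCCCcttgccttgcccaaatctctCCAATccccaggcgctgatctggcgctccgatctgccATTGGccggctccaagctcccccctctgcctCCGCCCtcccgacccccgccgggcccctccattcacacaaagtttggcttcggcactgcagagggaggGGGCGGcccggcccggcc
Kcnn3: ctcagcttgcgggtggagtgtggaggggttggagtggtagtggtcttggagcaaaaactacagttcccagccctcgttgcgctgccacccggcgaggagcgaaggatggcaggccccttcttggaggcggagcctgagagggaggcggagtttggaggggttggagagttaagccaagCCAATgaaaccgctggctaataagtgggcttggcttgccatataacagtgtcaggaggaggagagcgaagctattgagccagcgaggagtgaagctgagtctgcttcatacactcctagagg
Scn2b: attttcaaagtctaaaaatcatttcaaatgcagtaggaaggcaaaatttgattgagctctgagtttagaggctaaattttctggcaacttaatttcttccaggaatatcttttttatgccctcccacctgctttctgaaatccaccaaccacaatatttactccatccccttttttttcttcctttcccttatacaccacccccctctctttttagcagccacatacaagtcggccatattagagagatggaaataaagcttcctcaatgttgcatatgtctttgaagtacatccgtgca
Neither form of the heat shock core and no cyclic AMP element occurs in these 4 windows. The heat shock core is in 15.1% of all 32851 promoter windows and in 11.1% of the 135 windows of members, and the cyclic AMP element in 1.79% and 0. Kcnj10 holds 3 GC boxes and 2 CCAAT boxes, Kcna2 holds 1 GC box, Kcnn3 holds 1 CCAAT box, and Scn2b holds none of the motifs. GC boxes are in 35.7% of all windows and CCAAT boxes in 37.4%, against 45.9% and 28.1% of the members' windows, while the TATA box is in 13.6% and 5.19%. These windows differ in base composition, from 38.3% G and C in Scn2b to 66.7% in Kcna2. A match describes letters only, and its absence says nothing of a factor.

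**Figure D5:**
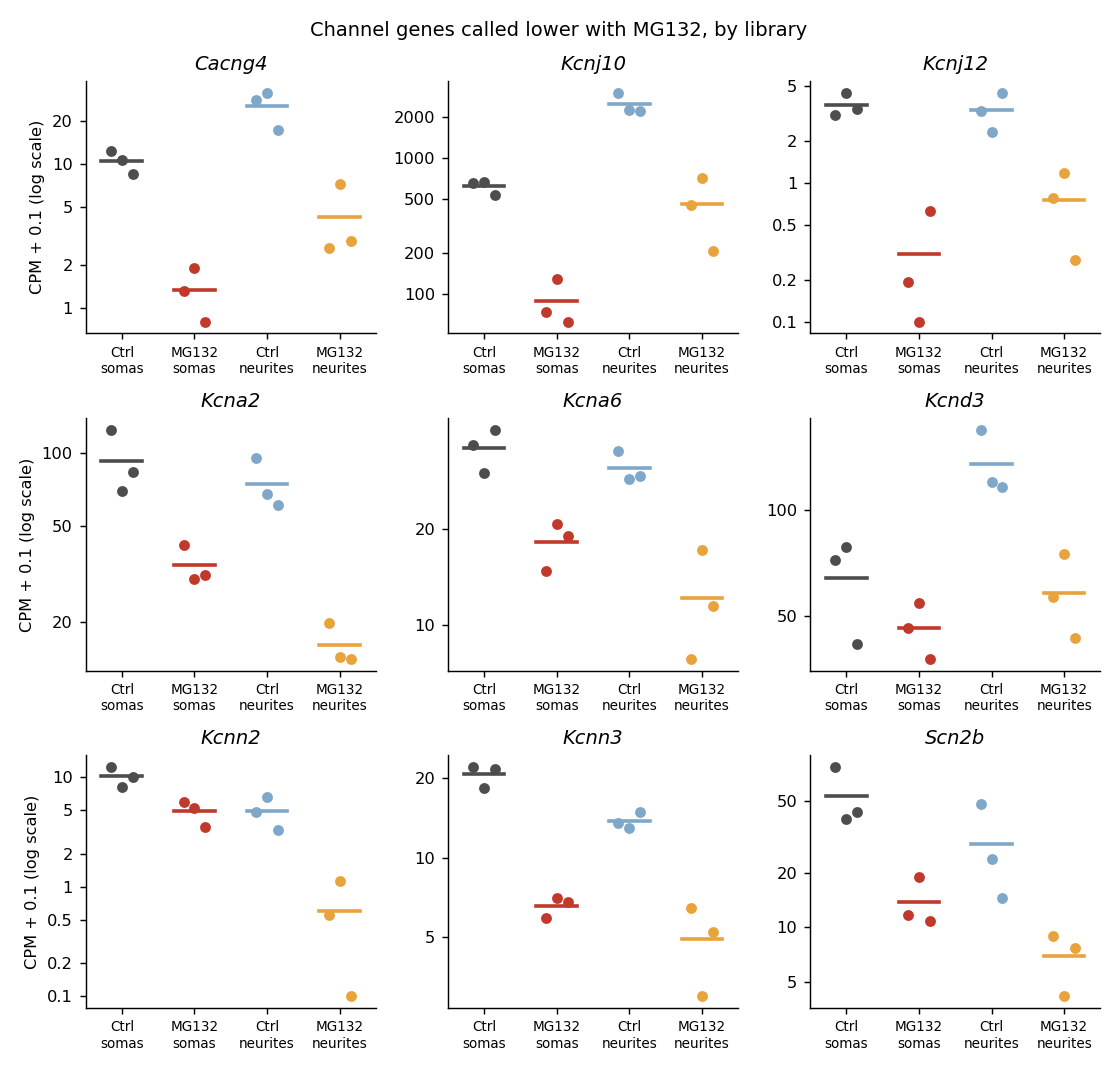
CPM plus 0.1 on a log axis for the 9 channel genes called lower with MG132 in somas, neurites or both, in all 4 groups. Points are libraries 1 to 3 from left to right and bars are group means. In Cacng4, Kcnj10, Kcna2, Kcnn3 and Scn2b the MG132 libraries lie below the Ctrl libraries of the same fraction in both fractions.

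Kcne4, which encodes an inhibitory subunit of Kv channels (chr1:78816911-78820032), was the member with the largest positive change, and it is named after its values were seen. It had 0, 2 and 5 reads in Ctrl somas and 73, 15 and 97 reads in MG132 somas, which did not overlap. The fitted log2 fold change of 4.18 ± 1.27 did not pass (edgeR, adjusted p 0.0239), and it passed with the replicate block (adjusted p 0.00561). In neurites it had 0, 0 and 2 reads in Ctrl and 0, 12 and 9 reads in MG132. Cacna1a had a log2 fold change of 0.18 ± 0.21 in somas and Kcnj4 of 0.80 ± 0.35, and neither passed (edgeR, adjusted p 0.567 and 0.105). In the HCN class 0 of 4 tested genes was called in either fraction. Kcnk2 was at -1.04 ± 0.35 in somas and -1.12 ± 0.35 in neurites, with adjusted p of 0.0406 and 0.0250 without the block and 0.00916 and 0.00163 with it (edgeR). Over classes, the median log2 fold change with MG132 in somas ran from -0.85 in the 7 tested two-pore genes to 0.35 in the 4 HCN genes, and in neurites from -1.12 to 0.07 in the same classes.

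Without the block, 73 of the 97 tested members were called in none of the 4 comparisons, and they held many of the better known subunits. Cacnb4, the most abundant calcium channel beta subunit here, was at 81.2 ± 3.27 CPM (SD, n = 3) in Ctrl somas, 57.0 ± 16.8 in MG132 somas, 47.4 ± 5.46 in Ctrl neurites and 36.2 ± 6.17 in MG132 neurites. The A-type channel Kcnd2 was at 35.8 ± 9.81, 22.1 ± 3.72, 16.4 ± 8.15 and 11.3 ± 4.24 CPM in the same order. In both genes the mean was highest in Ctrl somas and lowest in MG132 neurites. Hcn2, the pacemaker subunit with the highest level of its class, spread widely, from 11.6 to 39.9 CPM within Ctrl somas alone and from 12.9 to 42.7 CPM within MG132 neurites, so its 4 groups overlapped. Kcnab2, which binds Kv1 channels in axons, likewise ranged from 46.4 to 195.8 CPM within Ctrl neurites. The GIRK channel genes Kcnj3 and Kcnj6, which open on inhibitory G-protein signals, were at 27.5 ± 13.1 and 16.7 ± 9.81 CPM in Ctrl somas and 9.94 ± 8.78 and 6.79 ± 5.67 CPM in Ctrl neurites, with overlapping libraries. Gene Gm26794 lies opposite 31.1% of Kcnj3 exon bases and A430018G15Rik opposite 16.0% of those of Cacnb4, so their reads cannot be separated. The L-type pore Cacna1c had nearly the same mean with and without MG132, at 31.3 ± 5.94 and 31.6 ± 10.7 CPM in somas and 17.0 ± 8.59 and 16.1 ± 4.02 CPM in neurites. Once the replicate block was added, Kcnd2 and Cacna1c were called lower in neurites than in somas in both Ctrl and MG132 cultures. Kcnj3 and Kcnj6 were then called lower in neurites in MG132 cultures only. Summed by class, sodium channel alpha subunits had 248 to 358 CPM in Ctrl somas, 170 to 248 in MG132 somas, 90.9 to 145 in Ctrl neurites and 58.1 to 74.3 CPM in MG132 neurites. Only the inward rectifiers had a sum that was higher in Ctrl neurites than in Ctrl somas without overlap, 2235 to 3084 against 643 to 826 CPM, and Kcnj10 made up most of it.

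The last comparison asked whether MG132 changed a channel gene more in one fraction than in the other, which is the interaction of treatment and fraction. None was called: 0 of 97 members was higher and 0 lower, and over all tested genes the shares were 0 and 0. At an unadjusted p under 0.05 the counts were 0 higher and 4 lower among the members and 474 higher and 526 lower among all genes. DESeq2 and the replicate block called 0 members as well. Over all genes DESeq2 called 21 higher and 8 lower, and the block 14 and 7. The members with the smallest p were Kcna2, with a log2 difference (neurites response minus somas response) of -0.79 ± 0.35, Kcnn2 at -1.85 ± 0.84 and Kcnj4 at -1.12 ± 0.51. Their adjusted p were 0.684, 0.691 and 0.703 (edgeR). In Kcna2, Kcnn2 and Kcnj4 the neurites response was the lower one in all 3 same-numbered pairs. Cacna2d4, at -2.11 ± 0.99, and Kcnd3, at -0.73 ± 0.37, followed the same direction and did not pass (edgeR, adjusted p 0.709 and 0.738). None of the calls in a single fraction given above is therefore shown to be particular to that fraction.

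Genes that anchor, assist or regulate these channels were described from a list of 50, of which 49 were matched in the files and 46 tested. With MG132, 0 rose and 2 fell in somas, Nalcn (the sodium leak channel, -0.96 ± 0.22) and the AMPA receptor partner Shisa9 (-1.92 ± 0.39). In neurites 2 rose and 2 fell. The shares called of all tested genes were 9.0% higher and 5.58% lower in somas and 9.25% and 5.44% in neurites. Gem, a small GTPase that restrains calcium channels, rose by 1.72 ± 0.31 on the log2 scale (edgeR, adjusted p 0.000931), and the anchoring protein gene Akap9 by 0.81 ± 0.16. Akap5, which tethers kinases to L-type and M-type channels, fell by 2.0 ± 0.38 and the calmodulin gene Calm3 fell by 0.79 ± 0.20. Between fractions of Ctrl cultures, Sptbn1 (spectrin) and Calm3 were called higher in neurites, at 1.26 ± 0.18 and 1.42 ± 0.20, and the Kv4 partner Dpp6 and the ubiquitin ligase Nedd4l lower, at -1.39 ± 0.29 and -1.04 ± 0.21. In MG132 cultures Sptbn1 and Calm3 were again higher (0.88 ± 0.18 and 1.21 ± 0.20) and Dpp6 and Akap5 lower (-1.33 ± 0.29 and -1.57 ± 0.37). Of all tested genes, 6.15% were called higher and 1.28% lower in Ctrl neurites, and 6.92% and 2.08% in MG132 neurites. Median log2 fold changes of the tested partners were -0.38 in somas and -0.58 in neurites for MG132, and -0.32 and -0.49 for neurites against somas in Ctrl and MG132. Calls of Gem, Akap9 and Akap5 in neurites and of Calm3 between fractions were kept in every fit without 1 library. Sptbn1 in Ctrl was kept too, and each of the other partner calls was lost in 2 to 6 of its 6 fits.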

How the data were processed

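RNA-Seq data of 12 libraries were used, 3 for each of 4 groups named in the sample labels. Files deposited by the authors hold unnormalised counts, 1 whole number for each gene and library. The authors trimmed reads with Trimmomatic 0.38.0, aligned them to mm10 with STAR, counted them per gene with featureCounts 2.0.1 and tested them with DESeq2 2.11.40.7, per the study's methods and the submitters' processing notes. Default settings count without strand, so reads of antisense genes cannot be separated.

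Entrez identifiers were matched to RefSeq symbols (GRCm38.p6), and 25275 of 27179 had one. Exon lengths came from GENCODE M21, on the same build. The members, classes, partner genes and marker genes were chosen with earlier results of these data known. The genes named are, in each comparison, up to 8 called members with the largest change in each direction among those with the same sign in each of 3 pairs and a group mean of 1 CPM or more, the 3 with the smallest interaction p, the leading member of each class and a list of major brain subunits, and called partners. Some members that this rule names are counted but not reported here by name.

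Tests used edgeR 4.0.16 in R 4.3.3. Low counts were removed with filterByExpr, libraries were scaled with TMM, and 1 quasi-likelihood model of 4 group means without a block was fitted to 14185 genes over all 12 libraries. P-values were adjusted by the Benjamini-Hochberg method over all tested genes, and members were called at an adjusted p under 0.01 with a change above 1.7-fold, except in the interaction, which had no fold threshold. CPM use the TMM-scaled library size. The SE is the absolute log2 fold change over the square root of F. Nothing in the labels says that libraries came from separate animals, so p-values measure the spread between these libraries.

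The 4 groups share replicate numbers. Deviations from the group means correlated between same-numbered libraries of the groups compared by 0.165 to 0.248, and 12 of 12 libraries correlated best with their own number. The block result is therefore given as counts for the members, and by name for some of the genes whose call it changed. On simulated counts drawn like these libraries (13898 genes in the 4-fold run), the model recovered 65% of 200 genes changed 4-fold between MG132 and Ctrl somas. It recovered 0.5% of those changed 2-fold (13870 genes). In the data 1276 genes were called higher and 792 lower in somas, so the adjusted p was stricter in the simulation. The share of 2-fold differences missed in the data was therefore not measured, and some smaller ones were called (Nalcn in somas, -0.96). Alternatives were other scalings, DESeq2 1.42.0, other filters, fewer groups, the block, other thresholds, and leaving out each library.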

Additional observations from a re-analysis of the deposited data

How the results depend on the processing

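Each of the 98 named log2 fold changes (53 of them called) kept its direction in every alternative run for it, except Kcnd3 in MG132 neurites against somas, which was -0.36 with total counts. Total counts in place of TMM shifted the median of all genes to -0.70 and -0.86 in the fraction comparisons. With them 29 members were lower and 0 higher in Ctrl neurites and 42 lower in MG132 neurites. Of all genes, 936 were then lower and 179 higher in Ctrl neurites and 2115 lower in MG132 neurites. With MG132 in somas, 1 member was called higher and 10 lower by DESeq2, 1 higher without a low-count filter, and 1 higher and 12 lower at an adjusted p under 0.05. Of all genes, 1451 were higher and 1476 lower by DESeq2, against 1276 and 792 in the main fit. Without the filter 1454 were higher, and at an adjusted p under 0.05 there were 1800 higher and 1533 lower. In neurites 13 members were lower by DESeq2, 4 from the groups compared alone, 5 at a log2 fold change above 1.7 and 16 at an adjusted p under 0.05. All genes gave 1345, 475, 311 and 1539 lower in that order, against 772 in the main fit. In Ctrl neurites 12 members were lower by DESeq2, 15 without the filter, 3 at a log2 fold change above 1.7, and 12 lower and 5 higher at an adjusted p under 0.05. All genes gave 517, 450 and 48 lower in that order, then 547 lower and 1259 higher, against 181 and 873 in the main fit. In MG132 neurites 4 members were higher by DESeq2, 3 higher without the filter, 8 lower from the groups compared alone, 6 lower at a log2 fold change above 1.7, and 24 lower and 4 higher at an adjusted p under 0.05. All genes gave 1289 and 1238 higher and 155 and 72 lower in that order. At an adjusted p under 0.05 they gave 757 lower and 1381 higher, against 295 and 982 in the main fit.

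The replicate block gave 1 member higher and 14 lower in somas and 16 lower in neurites with MG132, 5 higher and 16 lower in Ctrl neurites, and 3 higher and 27 lower in MG132 neurites. The block also raised the calls of all tested genes in each of these comparisons, and it ended no member call made without it. Leaving out 1 library in turn left 4 to 5 members lower in somas and 4 to 7 in neurites with MG132, 0 to 2 higher and 2 to 8 lower in Ctrl neurites, and 1 to 3 higher and 5 to 10 lower in MG132 neurites. Of all genes, 429 to 582 were then lower in somas and 409 to 588 in neurites with MG132, against 792 and 772 in the main fit. In Ctrl neurites 578 to 806 were higher and 82 to 172 lower, against 873 and 181. In MG132 neurites 653 to 875 were higher and 76 to 192 lower, against 982 and 295. The number of members called in the interaction stayed at 0 in these fits.

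Scaling to the 6 neuron markers was chosen after seeing the data. It left 2 members lower in somas and 1 lower in neurites with MG132. Between fractions it left 0 higher and 1 lower in Ctrl neurites, and 0 higher and 3 lower in MG132 neurites. The calls of all genes fell as well in each of these comparisons. With MG132 in somas the lower calls went from 792 to 74. With MG132 in neurites the calls went from 1312 higher and 772 lower to 277 and 69. In Ctrl neurites they went from 873 higher and 181 lower to 143 and 16. In MG132 neurites they went from 982 higher and 295 lower to 87 and 30. Kcnj12, Kcnn2, Cacna2d4 and Kcne4 had few reads and spread between libraries. Simulated 2-fold differences were mostly not called when only 200 genes were changed.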
